A study of Mus musculus with 7 samples.

Results

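Dual nuclei were nuclei of the posterolateral cortical amygdala (plCoA) that carried RNA of both main vesicular glutamate transporter genes, Slc17a6 (VGluT2) and Slc17a7 (VGluT1). They were selected on these UMIs (unique molecular identifiers, each counting 1 captured RNA molecule): at least 2 of Slc17a6 and at least 2 of Slc17a7 in the same barcode, in barcodes with at least 1000 genes, at most 30000 UMIs and at most 1 UMI of Gad1 and Gad2 together. The rule found 592 dual nuclei among 51115 barcodes within the limits on genes and UMIs. It was set against 1564 Slc17a6-only nuclei and 11716 Slc17a7-only nuclei, which had at least 2 UMIs of one gene and none of the other. The question was whether dual nuclei have genes of their own or lie in between these classes.

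Single-nucleus RNA libraries were made from the anterior (aplCoA) and the posterior (pplCoA) domain of the plCoA of male C57BL6J mice, 8 weeks old. Tissue was microdissected and pooled over mice, so a nucleus cannot be assigned to an animal. Of 7 libraries, 4 came from aplCoA, where replicate 1 had 2 libraries that were summed here, and 3 from pplCoA, which gave 3 replicates in each domain. The files hold between 50812605 and 129624583 UMIs per library.

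Vesicular glutamate transporters load glutamate into synaptic vesicles, and a neuron needs at least one of them to release glutamate. In the adult forebrain Slc17a7 is typical of cortical and hippocampal excitatory neurons, and Slc17a6 of thalamic, hypothalamic and part of the amygdalar ones, so the pair is often used to tell glutamatergic populations apart. Slc17a6 lies at chr7:51622006-51671119 and Slc17a7 at chr7:45163949-45176142, both on the plus strand (GRCm38, GENCODE M21).

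Most dual nuclei lay near the threshold. Their median was 2 UMIs of Slc17a6 and 3 of Slc17a7, with maxima of 18 and 12. Exactly 2 UMIs of both genes were found in 123 dual nuclei, and at least 3 of both in 141. Just outside the rule lay 464 nuclei with at least 2 UMIs of Slc17a6 and 1 of Slc17a7, 1355 with at least 2 of Slc17a7 and 1 of Slc17a6, and 557 with 1 of each. Slc17a7 had the higher count in 292 dual nuclei, Slc17a6 in 129, and the counts were equal in 171. Dual nuclei were 22.6% of the 2620 nuclei with at least 2 UMIs of Slc17a6 and 4.33% of the 13663 with at least 2 of Slc17a7.

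Summed per replicate and scaled to CPM (the counts of a gene relative to all UMIs of the sum), Slc17a6 in dual nuclei had a lowest value of 148, a median of 170 and a highest value of 186 over the 6 replicates. In Slc17a6-only nuclei the same values were 209, 243 and 292. Slc17a7 was at 205, 228 and 263 CPM in dual nuclei and at 279, 301 and 342 CPM in Slc17a7-only nuclei. Each transporter gene was thus lower in dual nuclei than in the class that carried it alone, in ranges that did not overlap. These levels follow from the rule and were not tested. Slc17a8, which encodes VGluT3, had a UMI in 4 of the 592 dual nuclei.

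Some properties of the barcodes moved with the class. Dual nuclei had a median of 15047 UMIs, Slc17a7-only nuclei 14145 and Slc17a6-only nuclei 10653. Among the highest Scrublet scores of their library, a measure of likeness to simulated doublets, were 19.6% of dual, 11.4% of Slc17a7-only and 8.89% of Slc17a6-only nuclei. Counts below are also given without these nuclei, 116 of them dual, where that moved the count by over 1.5 times. Cells of types that should lack these genes also had their UMIs. Among 2232 oligodendrocyte barcodes (median 3558 UMIs), 24 had at least 2 UMIs of Slc17a6 (1.08%), 189 had at least 2 of Slc17a7 (8.47%) and 5 had both (0.224%, 95% Wilson interval 0.0957 to 0.523%). Among 5423 nuclei with at least 2 Gad1 and Gad2 UMIs (median 8671 UMIs), 63 met the threshold of Slc17a6, 211 (3.89%) that of Slc17a7 and 11 both. A nucleus with 1 transporter gene of its own needs stray UMIs of only the other to be counted as dual, and dual nuclei were deeper than these barcodes. The part of free RNA in dual nuclei was not tested. In the planned set of microglia, 142 of 8572 barcodes (1.66%) met both thresholds at a median of 7704 UMIs, but P2ry12, one of its markers, averaged 1.37 UMIs per Slc17a7-only nucleus, so this set held many neurons. Without P2ry12, a choice made after the values were seen, 7 of 4039 barcodes met both (0.173%, interval 0.0840 to 0.357%, median 3341 UMIs), 39 that of Slc17a6 and 193 that of Slc17a7 (4.78%). Intervals cover counting error only. Any pair of libraries shared between 5 and 37 barcode sequences, and the libraries of aplCoA replicate 1 shared 23.

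Dual nuclei were concentrated in a few groups of cells. Clusters were made on the 15691 nuclei with at least 2 UMIs of either transporter gene, without using Slc17a6, Slc17a7, Gad1 and Gad2, and are called by their leading genes. In 4 clusters dual nuclei made up over 10% of at least 50 nuclei. These held 352 of the 592 dual nuclei (59.5%), against 13.7% of all clustered nuclei, 5.39% of Slc17a7-only and 34.8% of Slc17a6-only nuclei. The clusters were picked for their share of dual nuclei, so this excess is a description. Cluster 22, led by Nxph1, Cdh6 and Pappa2, had the highest share, 37.5% of its 96 nuclei. Cluster 16, led by the transcription factor gene Ebf2 and by Npsr1, the receptor of neuropeptide S, followed with 25.0% of 440 nuclei. Cluster 10 (Tmem132c, Cntnap3 and Wls, which is needed for Wnt secretion) held 90 dual nuclei, 13.3% of its 678. Cluster 7 (Vwa5b1, Adarb2 and Gulp1) held 116, 12.3% of its 943.

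Outside these clusters dual nuclei were scattered. Cluster 2, led by Pde11a and by Reln, the gene of the secreted glycoprotein reelin, held 48, which was 3.66% of its nuclei. Cluster 12, led by the homeobox gene Prox1, held 40 (5.97%), and cluster 8, led by Moxd1 and Smoc1, held 27 (3.26%). Large clusters with little Slc17a6 held few: 3 of 1307 nuclei in cluster 3 and 3 of 1056 in cluster 5 were dual, at median depths of 14031 and 14344 UMIs. In cluster 6, led by Ebf1, Meis1 and Pbx3 and with 873 Slc17a6-only nuclei, 13 of 1017 nuclei were dual. The glial and meningeal clusters together with cluster 24, which was led by Ndnf, Ptgds and Ebf3, were 8 clusters with 32 dual nuclei, of which 31 had Scrublet scores among the highest.

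**Figure D1:**
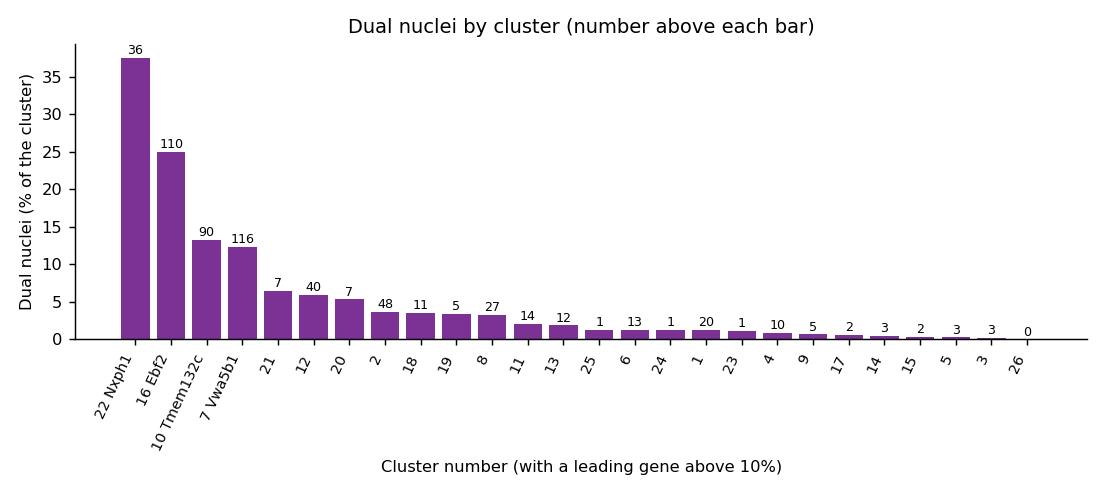
Share of dual nuclei in each cluster of at least 50 nuclei, as a percentage of the cluster's nuclei, with the number of dual nuclei above each bar and a leading gene beside the number of each cluster above 10%. Clusters 22, 16, 10 and 7 stand above 10%, and all others below 7%.

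The nearest neighbours of dual nuclei gave a similar picture. Among the 15 nearest nuclei, taken from other replicates, 14.1 ± 4.59% (SD, n = 6 replicates) of the neighbours of a dual nucleus were dual, where 3.77% of all nuclei in the graph were. Slc17a6-only nuclei were 10.8 ± 7.31% of the neighbours and Slc17a7-only nuclei 51.6 ± 15.4%, where they made up 9.97% and 74.7% of all nuclei. The neighbours of Slc17a6-only nuclei were 61.2 ± 10.6% (SD, n = 6) of the same class and those of Slc17a7-only nuclei 88.5 ± 2.49% (SD, n = 6). These values are descriptions and carry no test.

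Against Slc17a6-only nuclei, dual nuclei had more RNA of genes typical of Slc17a7-only nuclei and less of a set of homeobox genes. UMIs were summed per class and replicate, and 10374 genes were compared by edgeR's quasi-likelihood test with the replicate as a block. A gene counted as changed where it differed at least 1.5-fold and its Benjamini-Hochberg adjusted p was under 0.01. In dual nuclei 447 genes were higher, 4.31% of those tested, and 215 were lower, 2.07%. The Slc17a6-only sums of pplCoA replicates 2 and 3 rested on 17 and 11 nuclei.

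The 8 genes with the largest rise, among those higher in all 6 replicates and with a mean of at least 20 CPM in dual nuclei, were Trabd2b, Smoc2, Ano2, Itga8, Crispld1, Prdm8, Palmd and Ntf3. Trabd2b, whose product cleaves Wnt proteins, was at a lowest, median and highest value of 15.9, 78.3 and 197 CPM in dual nuclei and 1.83, 6.10 and 64.8 CPM in Slc17a6-only nuclei, ranges that overlapped although each replicate was higher (log2 fold change 3.55 ± 0.31, SE, edgeR adjusted p = 2.1e-07). Ntf3, the gene of neurotrophin-3, was at 20.4, 31.8 and 89.9 CPM against 0, 5.79 and 10.8 CPM, groups that did not overlap (log2 fold change 2.44 ± 0.26). Smoc2, which encodes a secreted calcium-binding matrix protein, had a log2 fold change of 3.48 ± 0.31 and Ano2, a calcium-activated chloride channel gene, one of 3.10 ± 0.41. Itga8, an integrin subunit gene, rose by 2.78 ± 0.29 on the log2 scale. Crispld1 (2.77 ± 0.25), Prdm8, a transcriptional repressor gene (2.74 ± 0.36), and Palmd (2.62 ± 0.24) completed the list. In Slc17a7-only nuclei the median levels of Smoc2, Itga8 and Palmd were higher still than in dual nuclei, at 60.2, 114 and 112 CPM against 24.8, 73.9 and 60.3 CPM. All 8 genes were found in under 10% of Slc17a6-only nuclei, but reached that minimum in Slc17a7-only nuclei as well as in dual nuclei.

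Among genes lower in all 6 replicates and with a mean of at least 20 CPM in Slc17a6-only nuclei, the largest falls were those of Gpr149, Sytl5, Meis1, Pbx3, C79798, Cacna2d2, Meis2 and Pcsk6. Meis1, Meis2 and Pbx3 encode homeobox factors that bind DNA as partners of one another. Meis1 was at 18.9, 101 and 117 CPM (lowest, median and highest) in dual nuclei and at 295, 383 and 483 CPM in Slc17a6-only nuclei, so every dual replicate lay below every Slc17a6-only replicate (log2 fold change -2.33 ± 0.27). Pbx3 was at 45.0, 139 and 209 CPM against 502, 611 and 815 CPM, again without overlap (log2 fold change -2.21 ± 0.17, adjusted p = 5.5e-08). Meis2 fell by 1.94 on the log2 scale. Gpr149, the gene of an orphan G protein-coupled receptor, differed by -3.54 on the log2 scale, from 32.4 to 1.49 CPM in the median replicate. Cacna2d2, a calcium channel auxiliary subunit gene, had a log2 fold change of -2.11 ± 0.25 and the transcript C79798 one of -2.21 ± 0.19. Sytl5, whose product binds Rab27, differed by -2.34 and Pcsk6, a proprotein convertase gene, by -1.82. Gpr149, Sytl5 and Pcsk6 reached the minimum of 10% of nuclei in Slc17a6-only nuclei alone, so their differences are descriptions.

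Against Slc17a7-only nuclei, 441 genes were higher in dual nuclei (4.25% of those tested) and 294 lower (2.83%). Meis1 led the rises seen in all 6 replicates: Slc17a7-only replicates lay between 0.846 and 5.95 CPM, below every dual replicate, and the log2 fold change was 4.35 ± 0.30 (edgeR adjusted p = 9.3e-09). Nxph1, which encodes a secreted ligand of neurexins, was at 109, 404 and 500 CPM in dual nuclei and at 15.7, 38.2 and 45.5 CPM in Slc17a7-only nuclei (log2 fold change 3.43 ± 0.37). Cdh6, a cadherin gene, was at 26, 76.4 and 104 CPM against 6.51, 8.48 and 10.6 CPM (3.10 ± 0.26). In none of these genes did the groups overlap.

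Tmem132c, a transmembrane protein gene, and Tmem132cos, named for its opposite strand, had log2 fold changes of 3.44 ± 0.28 and 3.38 ± 0.30. Pappa2, whose product cleaves insulin-like growth factor binding proteins, had one of 3.08 ± 0.28. Ano5, of the anoctamin family, rose by 2.95 ± 0.19 and Vwc2l by 2.53 ± 0.23. Of the 8 genes, 6 were found in under 10% of Slc17a7-only nuclei, and all 6 reached that minimum in Slc17a6-only nuclei as well as in dual nuclei. Nxph1, Cdh6, Pappa2 and Tmem132c were also among the leading genes of clusters 22 and 10.

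By the same limits, the largest falls against Slc17a7-only nuclei were those of Stard8, Ccbe1, Gabrd, Pygo1, Necab3, Car4, Ntng2 and Pparg. Stard8, a GTPase-activating protein gene, was at 0, 3.52 and 5.59 CPM in dual nuclei and at 16.9, 25.1 and 30.2 CPM in Slc17a7-only nuclei, without overlap (log2 difference -2.68). Ccbe1, of a secreted matrix protein, differed by -2.01 on the log2 scale. Both reached the minimum of 10% of nuclei in Slc17a7-only nuclei alone, so these are descriptions. Gabrd, the delta subunit of GABA-A receptors outside synapses, was at 9.20, 12.8 and 28.5 CPM against 30.3, 35.0 and 44.6 CPM (log2 fold change -1.48 ± 0.17). Ntng2, which encodes the axonal adhesion protein netrin-G2, had one of -1.34 ± 0.14 and Car4, a carbonic anhydrase gene, one of -1.35 ± 0.16. Pygo1, a coactivator gene of Wnt signalling (-1.41 ± 0.12), Necab3 (-1.38 ± 0.12) and the nuclear receptor gene Pparg (-1.34 ± 0.24) were lower in all 6 replicates as well. Without cutting at 10% of nuclei, or with DESeq2, the number of changed genes in both comparisons stayed within 1.5 times of these counts.

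Of the genes that changed, 248 were called in both comparisons in opposite directions, that is, between the other classes. By a stricter joint test, genes that set dual nuclei apart from both other classes in the same direction were few. Such a gene had to pass the test in both comparisons at once (the larger of the pair of p-values, adjusted over all genes). The 248 genes were counted by the single comparisons, so the counts are not alike. Tshz3 was called higher and Zfhx4 lower in both single comparisons without passing the joint test. By this rule 4 of 10374 genes were higher in dual nuclei than in both classes (0.0386%): Ebf2, Garnl3, Trmt9b and Palld. Of these, Ebf2 and Palld passed the minimum of 10% of nuclei in dual nuclei alone (Ebf2 had a UMI in 10.1% of dual, 2.94% of Slc17a6-only and 2.51% of Slc17a7-only nuclei, Palld in 11.3, 4.35 and 5.68%), so these genes could be tested only because they were high there, and their values are descriptions. Garnl3 passed in all 3 classes (81.2, 61.8 and 60.3%) and Trmt9b also in Slc17a7-only nuclei (19.1, 6.91 and 11%). By the joint test none was lower than both (0%), although 79 genes were lower at an unadjusted p under 0.05. DESeq2 gave 1 gene and the likelihood ratio test 2.

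Garnl3 (chr2:32986224-33131654), whose product carries a GTPase-activating domain like that of Rap regulators, was the only one of the 4 that was higher in all 6 replicates in both comparisons. It was at 179, 192 and 311 CPM in dual nuclei, at 108, 129 and 237 CPM in Slc17a6-only and at 90.7, 114 and 161 CPM in Slc17a7-only nuclei, so the ranges of dual and Slc17a6-only nuclei overlapped across replicates. The log2 fold changes were 0.62 ± 0.09 and 0.85 ± 0.08 (edgeR adjusted p for both = 0.0017). The call was lost without aplCoA replicate 1 (adjusted p = 0.059), aplCoA replicate 3 (0.043) or pplCoA replicate 1 (0.012) and with library 1 of aplCoA replicate 1 alone. It was also lost with no replicate block and with 1 or more UMI (edgeR adjusted p = 0.027). The other 3 genes did not keep their direction in every replicate and are named because the count was so small.

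Ebf2 (chr14:67233292-67430918), a helix-loop-helix transcription factor gene, had the largest difference of the 4. In dual nuclei it was at 72.6, 59.4 and 37.7 CPM in aplCoA replicates 1, 2 and 3 and at 4.60, 0 and 0 CPM in the pplCoA replicates. Slc17a6-only nuclei lay between 0 and 11.1 CPM and Slc17a7-only nuclei between 0.914 and 12.2 CPM. The higher level was therefore seen in aplCoA, with fitted log2 differences of 2.60 and 2.48, and DESeq2 did not call it (adjusted p = 1). Nor was Ebf2 called by edgeR with no replicate block or without aplCoA replicate 1 (adjusted p = 0.059). Ebf2 was also the first leading gene of cluster 16, whose 440 nuclei included 110 dual, 143 Slc17a7-only and 49 Slc17a6-only nuclei. Whether Ebf2 differed between the classes within that cluster was not tested. Without the highest Scrublet scores 9.45% of dual nuclei had a UMI of Ebf2, so it was no longer tested there. The same held without the glial and meningeal clusters (9.82%) and with no Gad1 or Gad2 UMI (9.57%). It also held with library 1 or 2 of aplCoA replicate 1 alone (7.97 and 9.26%) and with 1 or more UMI (6.84%).

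Trmt9b (chr8:36457548-36516570), a tRNA methyltransferase gene, was at 14.2, 20.9 and 31.9 CPM in dual nuclei, at 5.42, 10.3 and 16.2 CPM in Slc17a6-only and at 8.09, 10.0 and 13.3 CPM in Slc17a7-only nuclei. The ranges of dual and Slc17a7-only nuclei did not overlap. Its call was lost in nuclei of 10000 to 20000 UMIs (edgeR adjusted p = 0.74) and without aplCoA replicate 1 (0.051), aplCoA replicate 2 (0.015) or pplCoA replicate 1 (0.019). It was also lost with no replicate block (edgeR adjusted p = 0.058) and with 1 or more UMI (0.16). Palld (chr8:61511433-61902690), which encodes the actin-binding protein palladin, was at 4.73, 17.5 and 27.0 CPM in dual nuclei, but reached 36.0 CPM in Slc17a6-only nuclei of pplCoA replicate 3, a sum of 11 nuclei. DESeq2 did not call it (adjusted p = 0.074), nor did edgeR with either library of aplCoA replicate 1 alone or without any 1 of the aplCoA replicates or pplCoA replicate 1. The call of Palld was also lost with no replicate block (edgeR adjusted p = 0.32). Coordinates are those of GRCm38 (GENCODE M21), with Ebf2 and Trmt9b on the plus and Garnl3 and Palld on the minus strand. Without aplCoA replicate 1 no gene passed the joint test, without aplCoA replicate 2 or pplCoA replicate 1 there were 2, and without the highest Scrublet scores and the glial and meningeal clusters there were 7.

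**Figure D2:**
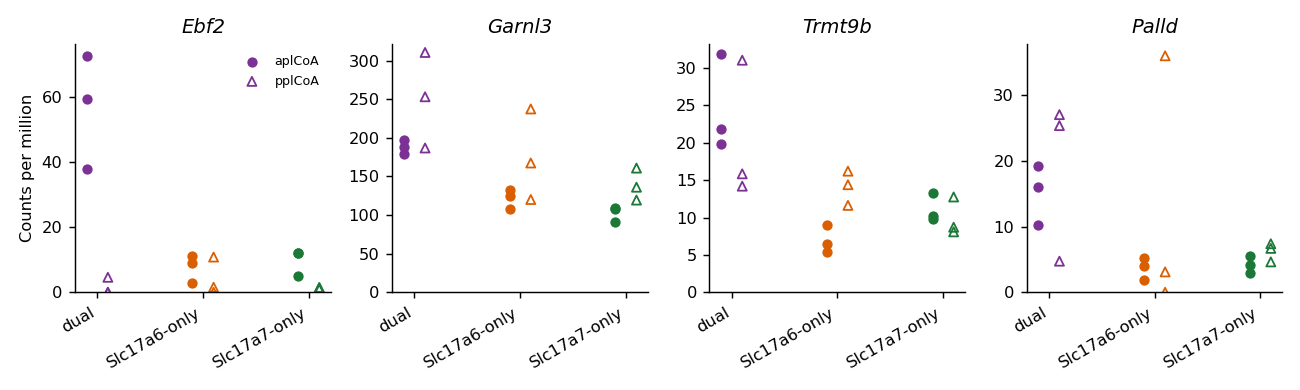
CPM of the 4 genes called higher in dual nuclei than in both other classes, with 1 point per replicate for each class (filled circles for aplCoA, open triangles for pplCoA). Ebf2 is above 37 CPM only in dual nuclei of aplCoA, whereas the Garnl3 points of each class spread over both domains.

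Gene groups were counted in both comparisons, beside 6.38% of all tested genes called against Slc17a6-only nuclei and 7.09% against Slc17a7-only nuclei. Of 22 cortical projection neuron identity factors tested, 8 were higher and 3 lower than in Slc17a6-only nuclei, and 7 higher and 2 lower than in Slc17a7-only nuclei (list medians 0.57 and -0.07 on the log2 scale, where the medians of all genes were -0.01 and -0.002). Nfib, a nuclear factor I gene, rose against Slc17a6-only nuclei (log2 fold change 2.09 ± 0.25). Foxp2, a forkhead factor gene of deep cortical layers, differed by -1.85 on the log2 scale. It had a UMI in 10.3% of dual nuclei of aplCoA and 4.58% of those of pplCoA. Over all dual nuclei it was below the minimum of 10%, so this difference is a description. Foxp2 and Tshz2 rose against Slc17a7-only nuclei (2.42 ± 0.27 and 2.46 ± 0.17), where Nfib, at -0.70 ± 0.20, did not pass. Among 17 other neuronal transcription factors, 4 were higher and 7 lower than in Slc17a6-only nuclei, and 7 were higher and 2 lower than in Slc17a7-only nuclei. Ebf1, a paralog of Ebf2, had log2 fold changes of -2.68 ± 0.35 and 2.78 ± 0.40, and Zfp536, a zinc finger repressor gene, 1.56 ± 0.18 and -1.22 ± 0.14. Both therefore lay between the other classes, with opposite slopes.

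Peptide and receptor genes were counted in the same way. Of 8 neuropeptide genes tested, 2 were lower than in Slc17a6-only nuclei, the cholecystokinin gene Cck (log2 fold change -1.07 ± 0.16) and Scg2 (-0.96 ± 0.14), which encodes secretogranin II. Against Slc17a7-only nuclei 5 were higher, with Adcyap1, the gene of PACAP, at 2.21 ± 0.29, while Cck, at 0.29 ± 0.15, did not pass. The 5 include Nxph1, which is on this list although it encodes a ligand of neurexins, and which is also counted among GABAergic markers below. Of 27 neuromodulator and peptide receptor genes, 4 were higher and 5 lower than in Slc17a6-only nuclei, led by the neurotensin receptor gene Ntsr1 (2.91 ± 0.32) and the substance P receptor gene Tacr1 (-1.74 ± 0.30). Against Slc17a7-only nuclei 6 were higher and 3 lower, led by the adrenergic receptor gene Adra1a (2.08 ± 0.15) and the muscarinic receptor gene Chrm2 (-0.89 ± 0.14).

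Of 12 genes for glutamate and glutamine handling none passed in either comparison, a count near that of the background. Glud1, the gene of glutamate dehydrogenase, had a log2 fold change of -0.37 ± 0.08 from Slc17a6-only nuclei (edgeR adjusted p = 0.0045), below 1.5-fold. Of 34 presynaptic release genes, 3 were higher and 1 lower than in Slc17a6-only nuclei, and 6 were higher and 1 lower than in Slc17a7-only nuclei. Syt17, a synaptotagmin family gene, was at 104, 123 and 208 CPM in dual nuclei against 16.2, 22.4 and 57.6 CPM in Slc17a6-only nuclei, without overlap (2.38 ± 0.13), and at 146, 164 and 182 CPM in Slc17a7-only nuclei. Unc13c, a vesicle priming gene, had log2 fold changes of -1.04 ± 0.12 and 1.32 ± 0.12. Of 16 ionotropic glutamate receptor genes, 1 was higher and 2 lower than in Slc17a6-only nuclei, with the kainate receptor subunit gene Grik4 at -1.69 ± 0.19. Against Slc17a7-only nuclei 4 were higher, with Grik1 at 1.01 ± 0.18 and Grik4 at 1.00 ± 0.20. Among 5 metabotropic receptor genes only Grm8 passed, against Slc17a7-only nuclei (1.12 ± 0.13).

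Membrane and adhesion genes held examples of both directions. Of 42 potassium, calcium and HCN channel genes, 5 were higher and 1 lower than in Slc17a6-only nuclei. Against Slc17a7-only nuclei 4 were higher (9.52%), a share near the 7.09% of all tested genes. The largest of these rises were those of Kcnip1, a Kv4 channel partner (2.70 ± 0.23), and Cacna1g, a T-type calcium channel gene (1.66 ± 0.17). Of 20 cadherin genes, 4 were higher and 4 lower than in Slc17a6-only nuclei and 3 higher and 1 lower than in Slc17a7-only nuclei. For 35 axon guidance genes the counts were 6 and 3, and 4 and 4, with Robo3 at 1.78 ± 0.26 against Slc17a6-only and -0.70 ± 0.17 against Slc17a7-only nuclei. Of 12 GABA-A receptor subunit genes, 1 was higher and 1 lower than in Slc17a6-only nuclei, and 2 were higher and 1 lower than in Slc17a7-only nuclei. Of 20 genes that mark glutamatergic subtypes, a list taken from these samples by the study and no independent evidence, 6 were higher and 4 lower, and 8 higher and 2 lower.

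Markers of other cell types were checked in the same sums. Of 7 GABAergic marker genes tested, 4 were higher than in Slc17a7-only nuclei, among them Nxph1 and Adarb2 (log2 fold change 1.70 ± 0.34), and 1 was lower. Summed over all 14 listed genes, the level was 483 to 1439 CPM in dual nuclei, 261 to 430 CPM in Slc17a7-only nuclei and 1347 to 1977 CPM in Slc17a6-only nuclei, while the defining gene Slc32a1, the vesicular GABA transporter, was at 0 to 1.77 CPM in dual nuclei. The sum of 9 astrocyte markers was 554 to 1063 CPM in dual, 439 to 634 CPM in Slc17a7-only and 648 to 3511 CPM in Slc17a6-only nuclei. Of the 5 tested, Gpc5 changed, lower than in Slc17a6-only (-1.70 ± 0.41) and higher than in Slc17a7-only nuclei (1.60 ± 0.39). The 8 oligodendrocyte markers summed to 96.4 to 131 CPM in dual nuclei and 100.2 to 131 CPM in Slc17a7-only nuclei, and the 7 microglia markers to 96.6 to 170 and 105 to 175 CPM. In Slc17a6-only nuclei these sums spread more widely, from 57.6 to 247 CPM and from 99.4 to 863 CPM, with a mean of 415 CPM for microglia markers in pplCoA. Markers of oligodendrocyte precursors (10.2 to 49.5 CPM in dual nuclei) and of vessels and meninges (7.05 to 21 CPM) held no gene that was seen often enough to be tested. Only 3 of the oligodendrocyte markers and 3 of the microglia markers were seen often enough to be tested. None of them was called in either comparison, but so few genes cannot be compared with the share called among all genes. None of the 8 mitochondrially encoded genes tested was called. Of these, mt-Nd4 was higher than in Slc17a7-only nuclei but stayed below the minimum fold (0.51 ± 0.12, edgeR adjusted p = 0.0053). The part of cells other than neurons in these differences was not tested.

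Averaged over nuclei, dual nuclei lay between the other classes for nearly all genes that separate them. Between Slc17a6-only and Slc17a7-only nuclei 958 genes differed at least 2-fold (9.23% of those tested), 450 of them higher in Slc17a6-only nuclei. For each gene the log2 position of dual nuclei was scaled so that 0 is the level of Slc17a7-only nuclei and 1 that of Slc17a6-only nuclei. The median position was 0.479, with quartiles of 0.323 and 0.629. For 916 genes (95.6%) it lay between 0 and 1, for 20 below 0 and for 22 above 1. The median was 0.603 for genes of the Slc17a6 side and 0.379 for genes of the Slc17a7 side. Slc17a7-only nuclei enter both the position and its scale, so the measure is a description.

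**Figure D3:**
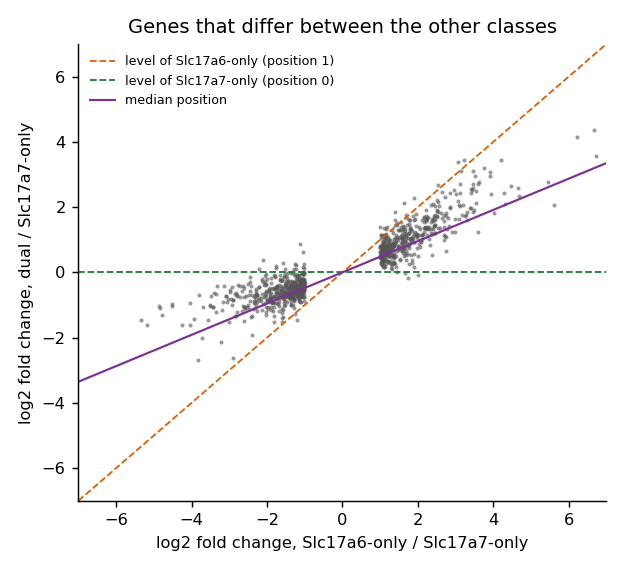
Log2 fold changes of the 958 genes that differed at least 2-fold between Slc17a6-only and Slc17a7-only nuclei (x axis), against the log2 fold change of dual over Slc17a7-only nuclei (y axis), 1 point per gene. Most points lie between the dashed line of position 0 and that of position 1, around the solid line of the median position, 0.479.

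Single dual nuclei did not gather at this middle value. For each nucleus, the UMIs of the 450 genes of the Slc17a6 side were taken as a percentage of the UMIs of all 958 genes, called here the Slc17a6-side share. Its median was 71.2% in Slc17a6-only nuclei, 19.8% in Slc17a7-only nuclei and 48.5% in dual nuclei, where the first 2 values follow from the choice of genes. Of the dual nuclei, 262 (44.3%) lay at or below 43.4%, the level under which 95% of Slc17a7-only nuclei fell. Another 255 (43.1%) lay at or above 53.7%, the level over which 95% of Slc17a6-only nuclei fell, and 75 (12.7%) lay between these values. These limits are set by the outer 5% of each class, so the window between them is narrow. The quartiles of dual nuclei were 29.9 and 63.3%. Within 5 percentage points of the lower limit were 76 dual nuclei and within 5 of the upper one 81. In steps of 5 percentage points, dual nuclei were most frequent from 65 to 70% (89 nuclei) and from 60 to 65% (70 nuclei). A lower rise lay at 25 to 30% (63 nuclei), with 35 to 46 in each step from 30 to 60%. Nuclei with at least 2 UMIs of Slc17a6 and 1 of Slc17a7 had a median share of 66.5%, and those with at least 2 of Slc17a7 and 1 of Slc17a6 one of 26.9%.

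**Figure D4:**
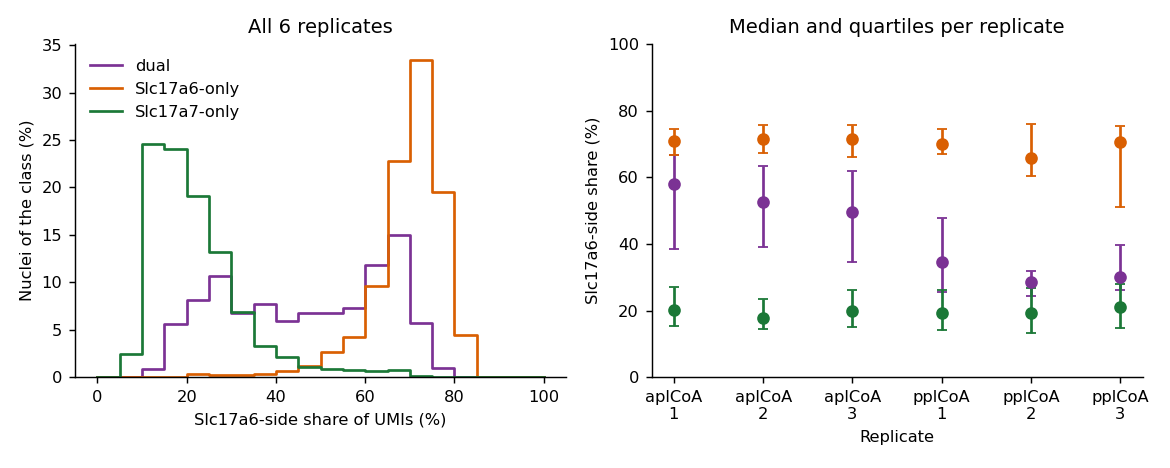
Left, distribution of the Slc17a6-side share (UMIs of 450 genes higher in Slc17a6-only nuclei, as % of the UMIs of 958 genes) in steps of 5 percentage points, as % of the nuclei of each class. Right, median (points) and quartiles (bars) per replicate in the same colours, where dual nuclei have medians of 49.6 to 58.0% in aplCoA and 28.7 to 34.5% in pplCoA.

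The share of a dual nucleus went with its cluster. Dual nuclei had median shares of 61.4% in cluster 7, 62.1% in cluster 16, 69.9% in cluster 22 and 42.3% in cluster 10. Slc17a7-only nuclei of cluster 16 had a median of 61.1% and its Slc17a6-only nuclei one of 64.8%, so the 3 classes were close to each other there. In cluster 7 these values were 58.8% and 68.8%, and in cluster 10 they were 33.9% and 60.1%. In clusters 2, 12 and 8, dual nuclei had medians of 22.6, 28.6 and 29.3%, and Slc17a7-only nuclei of the same clusters 17.1, 20.7 and 28.3%.

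Within the cluster that held most dual nuclei, genes of their own were not detected. In cluster 7, aplCoA replicates 1 and 3 and pplCoA replicate 1 had at least 10 nuclei of each class, with 65, 25 and 10 dual nuclei. Of 10349 genes tested by edgeR, 0 (0%) were higher than in both classes, where 46 were at an unadjusted p under 0.05, and DESeq2 and the likelihood ratio test gave 0. Against Slc17a7-only nuclei of the cluster 0 genes were called, where 558 had an unadjusted p under 0.05, DESeq2 gave 0 and the likelihood ratio test 6, and there were 2 at resolution 0.5 and 1 without aplCoA replicate 1. Against Slc17a6-only nuclei 44 genes were higher and 11 lower, and 39 of these 55 had also been called, in the same direction, over all clusters. Without the highest Scrublet scores these counts were 9 and 5, and with DESeq2 they were 26 and 4. They were 17 and 9 without aplCoA replicate 1, 18 and 6 without aplCoA replicate 3, and 70 and 30 in the coarser clusters of resolution 0.5. This fit rested on few replicates, and the size of difference it could detect was not tested.

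The share of dual nuclei among nuclei with either transporter gene was higher in every aplCoA replicate than in any of pplCoA. Of nuclei with at least 2 UMIs of either transporter gene, 5.06, 5.55 and 4.68% were dual in aplCoA replicates 1, 2 and 3, and 3.36, 1.41 and 1.14% in pplCoA. The means were 5.10 ± 0.43% and 1.97 ± 1.21% (SD, n = 3 replicates each), a difference of 3.13 percentage points, with no overlap between domains (p = 0.1 by a two-sided exact permutation test, which cannot give less with 3 replicates a side). With nuclei thinned to 5000 UMIs and at least 1 UMI of each gene, the shares were 9.24, 5.56 and 7.07% against 5.16, 2.86 and 3.81%, again without overlap. Relative to Slc17a6-only nuclei the order of domains was reversed. The aplCoA replicates held 250, 65 and 124 dual beside 901, 146 and 383 Slc17a6-only nuclei. Those of pplCoA held 104, 28 and 21 beside 106, 17 and 11.

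The position of dual nuclei had the same order of domains. Their median Slc17a6-side share was 58.0, 52.5 and 49.6% in aplCoA and 34.5, 28.7 and 30.1% in pplCoA, with means of 53.4 ± 4.27% and 31.1 ± 3.05% (SD, n = 3; exact permutation test, two-sided, p = 0.1). Their median position over the 958 genes was 0.561 ± 0.046 in aplCoA and 0.270 ± 0.064 in pplCoA (SD, n = 3; exact permutation test, two-sided, p = 0.1). Here 0 was the Slc17a7-only level of the same replicate, but the scale was the difference between the other classes fitted over all 6 replicates. A position of 1 is therefore not the Slc17a6-only level of that replicate or domain. Over these 3 comparisons of domains the Benjamini-Hochberg adjusted p was also 0.1. The shares of the clusters among dual nuclei also differed: the 4 clusters rich in dual nuclei held 68.8, 67.7 and 67.7% of them in aplCoA replicates 1, 2 and 3 and 40.4, 10.7 and 33.3% in pplCoA. Cluster 16 held 108 dual nuclei from aplCoA and 2 from pplCoA, and cluster 8 held 1 and 26, while cluster 10 held 59 and 31 and cluster 2 held 21 and 27. All nuclei of these clusters were unevenly spread as well. Cluster 16 had 424 nuclei from aplCoA and 16 from pplCoA, and cluster 8 had 20 and 809. Cluster 10 had 478 and 200, and cluster 2 had 528 and 782.

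Gene by gene, dual nuclei of aplCoA and pplCoA were compared over their replicates, and of 10596 genes 56 were higher in aplCoA (0.529%) and 83 in pplCoA (0.783%). All 139 had replicates that did not overlap, as did 23.3% of all genes tested. Genes higher in aplCoA included transcription factor genes of both lists. Ebf2, Ebf1, Foxp2 and Npsr1 reached the minimum of 10% of nuclei in aplCoA alone (Ebf2 had a UMI in 13.2% of dual nuclei of aplCoA and 1.31% of pplCoA), so their differences are descriptions. The fitted log2 difference of Ebf2 was 4.15. Ebf1 was at 95.2, 100.1 and 45.6 CPM in aplCoA and at 15.0, 0 and 6.34 CPM in pplCoA (2.86), and Foxp2 differed by 2.17 on the log2 scale. Npsr1 was at 51.6, 38.1 and 55.0 CPM against 5.18, 0 and 3.17 CPM (3.61). Scg2 (log2 fold change 1.88 ± 0.33), Adarb2 (1.75 ± 0.34) and Trpc7, a cation channel gene (1.74 ± 0.35), were also among the 8 largest differences by the rule.

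Genes higher in dual nuclei of pplCoA included the transcriptional regulators Nfib and Dach1. Nfib was at 340, 608 and 681 CPM in pplCoA and at 167, 109 and 153 CPM in aplCoA (log2 fold change, aplCoA over pplCoA, -1.85 ± 0.21, adjusted p = 5.3e-05). Dach1, a transcriptional corepressor gene, was at 319, 653 and 624 CPM against 160, 172 and 146 CPM (-1.69 ± 0.20). Ano2 (-2.30 ± 0.44), the matrix protein gene Smoc1 (-2.18 ± 0.44), the long noncoding RNA Sox2ot (-2.06 ± 0.27), Trabd2b (-1.86 ± 0.28), the AMPA receptor auxiliary gene Shisa6 (-1.54 ± 0.23) and Cdh13, an atypical cadherin gene (-1.53 ± 0.23), followed. These counts moved with single replicates: 28 genes were called without aplCoA replicate 1, 41 without aplCoA replicate 2, 64 and 67 without pplCoA replicates 2 and 3, and 248 without pplCoA replicate 1. The pplCoA replicates 2 and 3 held 28 and 21 dual nuclei. Mitochondrially encoded UMIs made up 0.0267, 0.0292 and 0.0193% of the UMIs of dual nuclei in aplCoA replicates 1, 2 and 3. In pplCoA these values were 0.0136, 0.0137 and 0.0106%, without overlap. None of the 8 mitochondrially encoded genes tested was called between domains. The part of nuclear quality in the domain result was not tested. Sox2ot was also among the leading genes of cluster 20, led by Bcas1 and Pdgfra, a gene of oligodendrocyte precursors, whose 7 dual nuclei (6 from pplCoA) all had Scrublet scores among the highest. Markers of these precursors summed to a mean of 29.7 CPM in dual nuclei of pplCoA and 12.6 CPM in those of aplCoA, and their part in the result was not tested.

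**Figure D5:**
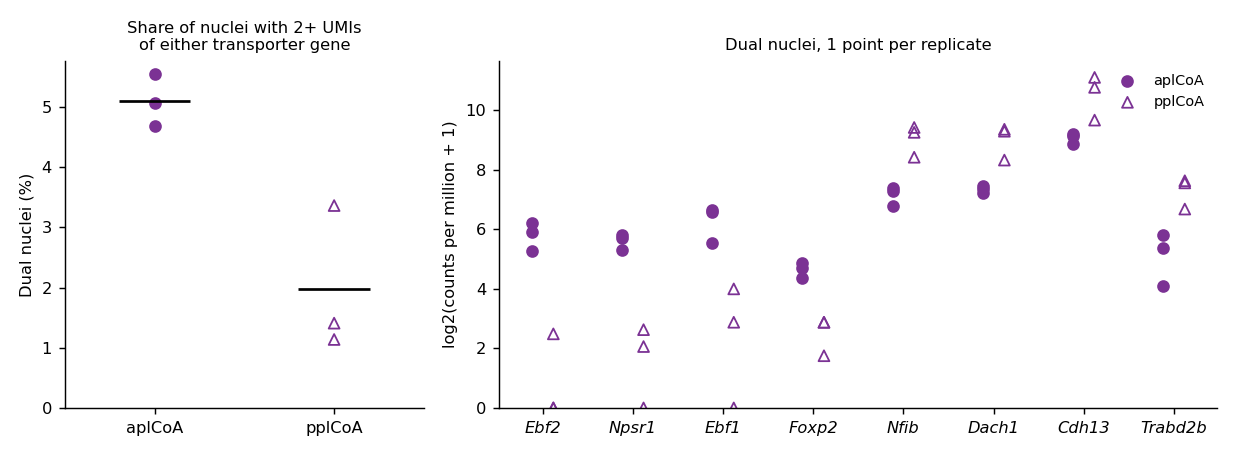
Left, dual nuclei as % of nuclei with at least 2 UMIs of either transporter gene, 1 point per replicate with the mean as a line (5.10% in aplCoA, 1.97% in pplCoA). Right, log2(CPM + 1) of 8 genes in dual nuclei, 1 point per replicate, where Ebf2, Npsr1, Ebf1 and Foxp2 are higher in every aplCoA replicate and Nfib, Dach1, Cdh13 and Trabd2b in every pplCoA replicate.

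Of the genes named here, all but Sox2ot had the same order of domain means in Slc17a7-only nuclei. Sox2ot was at 32.2 ± 5.09 CPM in aplCoA and 28.5 ± 4.84 CPM in pplCoA there (SD, n = 3). Nfib was at 343 ± 70.8 CPM in aplCoA and 561 ± 103 CPM in pplCoA there (SD, n = 3), and Cdh13 at 441 ± 129 and 1179 ± 409 CPM. Ebf2 was at 9.76 ± 4.18 and 1.25 ± 0.29 CPM. Whether the difference between dual and Slc17a7-only nuclei changed with the domain was tested as an interaction, and 17 of 10283 genes passed (0.165%). Nfib was among them (-1.14 ± 0.14, edgeR adjusted p = 6.4e-04), and others are named after their values were seen. Hs3st4, a heparan sulfate sulfotransferase gene, averaged 884 CPM in dual and 178 CPM in Slc17a7-only nuclei of aplCoA, and 366 and 157 CPM in pplCoA (1.07 ± 0.14). Tenm3, a teneurin gene of synaptic partner matching, averaged 378 and 67.2 CPM in aplCoA and 158 and 83.3 CPM in pplCoA (1.48 ± 0.20). Tafa1, which encodes a secreted chemokine-like protein, averaged 1589 CPM in dual and 3357 CPM in Slc17a7-only nuclei of aplCoA, and 3606 and 4263 CPM in pplCoA (-0.86 ± 0.09). Leaving out 1 replicate gave between 5 (without pplCoA replicate 2) and 36 genes (without pplCoA replicate 1), with 10 and 11 without pplCoA replicate 3 and aplCoA replicate 1. Without the highest Scrublet scores there were 33.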

How the data were processed

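The members and gene lists were chosen with earlier results of these data known. The authors isolated nuclei, made droplet libraries with a 3' kit (10X, v3.1) and aligned reads with introns to mm10, with Cell Ranger 5.0.0 per the submitters' processing notes (the file headers name version 4). They deposited unfiltered UMI counts per gene and barcode, without normalization or removal of free RNA, which adds UMIs to every barcode.

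Here barcodes were selected as described, and the libraries of aplCoA replicate 1 were summed. Replicates are separate tissue pools per the labels. The UMIs of each class were added up in each replicate, kept where at least 10% of the nuclei of a class had the gene, scaled by TMM and fitted by edgeR 4.0.16 in R 4.3.3 (quasi-likelihood, replicate as block for classes), without Slc17a6, Slc17a7, Gad1 and Gad2. DESeq2 1.42.0 and the likelihood ratio test were alternatives. Shares and positions were compared by exact permutation. The fit of domains had no block. The fits were also tested on simulated counts. Of simulated 2-fold changes, the joint test against both classes recovered 89% and the fit of domains 61%, with 0 and 4 false calls.

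Clusters came from 3000 variable genes, 30 principal components and the Leiden algorithm at resolution 1.0 (scanpy 1.11.5, Python 3.11.15). Scrublet scores were ranked in each library at 1% per 1000 nuclei, and no nucleus was removed in the main analysis. Genes named by rule were the 8 largest per direction with the same sign in all 6 replicates (no overlap for domains) and at least 20 CPM, list members with the largest changes and, above both classes, up to 15. Predicted genes were counted but not named, and a few other genes that the rule names are not reported here. The Slc17a6-side share, and leaving out the 8 clusters called glial and meningeal (which include cluster 24, led by Ndnf, Ptgds and Ebf3), were added after seeing the data. No sequence is shown, since the data are counts per gene.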

Additional observations from a re-analysis of the deposited data

Results flagged for a closer look

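The difference between dual and Slc17a7-only nuclei depended on the domain for 17 genes by the interaction test. Relative to the midpoint of the medians of the other classes in the same replicate, the median Slc17a6-side share of dual nuclei was higher in all 3 aplCoA replicates, by 8.02 percentage points on average, and differed by -13.2 percentage points in pplCoA, where all 3 replicates lay below it. The difference between the domains in this offset was not tested.

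Of 32 gene and contrast pairs named by rule, 7 had 1 replicate far from the other 5, where the nominal rate of such flags is about 1 in 20. That rate was not measured for genes chosen by their large changes. Log2 levels include a small added count, which sets the size of a difference where a sum held no UMI of the gene. Against Slc17a6-only nuclei these were Palmd with a log2 difference of 0.82 and Ntf3 with 8.02 in pplCoA replicate 3, and C79798 with -4.94 in pplCoA replicate 2. Against Slc17a7-only nuclei they were Meis1 with 6.83, Tmem132cos with 5.67 and Ccbe1 with -6.71, all in pplCoA replicate 3, and Pparg with -4.0 in aplCoA replicate 2. These replicates held 21 (pplCoA 3), 28 (pplCoA 2) and 65 (aplCoA 2) dual nuclei. The Slc17a6-only sums of the first pair held 11 (pplCoA 3) and 17 (pplCoA 2) nuclei.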

How the results depend on the processing

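Among nuclei with either transporter gene, the share of dual nuclei kept its direction under each alternative run. Its difference was 3.13 percentage points (1.68 to 7.99 over all alternatives). The Slc17a6-side share kept its direction as well, and the median position stayed between 0.387 and 0.541. Shares relative to Slc17a6-only nuclei, whose order was reversed, were not among these runs. Genes called against Slc17a6-only nuclei were 662 and became 395 with 3 or more UMIs of each gene and 1640 at an adjusted p under 0.05 without a minimum fold. Against Slc17a7-only nuclei, 735 became 428 with 1 or more UMI and 2079 at that threshold. The 4 genes above both classes became 10 by the likelihood ratio test, 9 without a filter on low counts and 7 with 3 or more UMIs. There were 11 at an adjusted p under 0.05, and 0 to 4 when 1 replicate was left out. With library 1 of aplCoA replicate 1 alone there was 1, with 1 or more UMI 0 and with no replicate block 0. Without the highest Scrublet scores and the glial and meningeal clusters there were 7, and without those clusters alone 2. In the run without those clusters alone, Ebf2 and Palld each had a UMI in 9.82% of dual nuclei. Both were thus under the minimum of 10% and were not tested. Genes below both classes, 0 in the main analysis, were 1 by DESeq2, 2 by the likelihood ratio test, 2 without a filter, 1 with 3 or more UMIs, 20 with 1 or more UMI and 1 without the highest Scrublet scores and those clusters. The 139 genes between domains became 360 by the likelihood ratio test, 365 without a filter, 57 and 88 with library 1 or 2 alone, 71 with 1 or more UMI, 49 with 3 or more, 456 at an adjusted p under 0.05, and 28 to 248 when 1 replicate was left out. With the replicate number as a replicate block there were 53. The deviations of same-numbered replicates from their domain had correlations of -0.00755, -0.0195 and 0.0199. These come from sums of few dual nuclei (21 in pplCoA replicate 3), whose counting error can hide a pairing. They cannot decide whether the numbers pair the samples. The 17 interaction genes became 67 by the likelihood ratio test, 113 without a filter, 26 with nuclei of 10000 to 20000 UMIs, 33 without the highest Scrublet scores, 0 with 1 or more UMI, 52 at an adjusted p under 0.05, and 5 to 36 when 1 replicate was left out. The causes were not tested. Of 2542 alternative values of 126 named gene results, 268 kept their direction but missed the threshold and 2 reversed: Gpc5 against Slc17a7-only nuclei to -0.17 with 1 or more UMI, and Trhr between domains to 0.26 with 3 or more. Nuclei of 10000 to 20000 UMIs left too few replicates within cluster 7, so that fit was not run. Few dual nuclei in pplCoA limit the comparison of domains, and replicates are pools, whose p-values measure the spread between pools.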
